A study of Mus musculus with 4 samples.

Results

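The repeats described here are the VL30 elements of the mouse and their gammaretroviral relatives, read in mouse embryonic fibroblasts (MEFs). The members were the copies in the deposited table of repeats whose name starts with MMVL30, RLTR6, RLTR4 or MuLV. The rule works on names and not on measured values, but it was chosen with earlier results of these data known. It found 272 of 36284 copies, under 23 of 1040 repeat names. Of these, 147 copies carried VL30 names (97 of MMVL30-int, 28 of RLTR6-int, 12 of RLTR6_Mm, 6 of RLTR6B_Mm and 4 of RLTR6C_Mm). A further 39 carried names of murine leukemia virus, MuLV (33 of RLTR4_MM-int, 4 of RLTR4_Mm and 2 of MuLV-int). The remaining 86, under 15 names, share only the letters (RLTR40 to RLTR49) and were counted apart.

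A gammaretroviral provirus has an internal part, which codes for the viral proteins in an intact element, between a pair of long terminal repeats (LTRs). The LTR holds the promoter, the enhancers and the polyadenylation signal, so a full transcript starts in one LTR and ends in the other. VL30 elements are defective in protein coding: they spread by being packaged in particles of replicating MuLV, and their RNA is known to be abundant in mouse fibroblasts and to respond to growth factors and low oxygen. MMVL30-int is the annotated internal part of VL30, RLTR6_Mm its LTR, RLTR4_MM-int the internal part of MuLV and RLTR4_Mm its LTR. The table gives no sequence, coordinate or length for a copy, so levels are not compared between names or copies, and a ratio of internal to LTR reads is only compared between groups.

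The SON group, 2 libraries, came from BALB/c MEFs at passage 2 infected with a lentivirus for Nanos2, Oct4 (Pou5f1) and Stella (Dppa3), regulators of pluripotent and germ cells. The GFP control group, 2 libraries, came from the same kind of cells infected with a GFP lentivirus. Both were put under puromycin (2 µg/ml) 72 h after infection, for 4 days, and were then cultured without it for 21 days. The sources used here do not give the promoter of the vectors. Nor do the labels say that 2 libraries of 1 group were separate cultures, so no p-value speaks beyond these libraries. The limma p-values and SEs also borrow variance from the other copies, names or genes tested, and do not rest on the spread of 1 name alone. The build named in the submitters' processing notes (GRCm38, mm10) is of C57BL/6J mice, so copies are those of that genome.

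The values are reads per copy divided by 1 factor per library, called normalized reads below. The table held 565399 and 469737 reads in SON a and b, and 850223 and 1119717 in GFP control a and b. Its columns carry the letters a and b, while the gene columns carry numerals I and II, and no label joins them. The delivered genes were read in the SON libraries (Nanos2 at 267 and 274 reads in SON I and II, against 0 and 1 in GFP control I and II). Ribosomal RNA names took 22.3% of the repeat reads in SON a and 7.85% in SON b, against 1.97% in GFP control a and 3.34% in GFP control b. On the deposited scale the median log2 difference of all 943 names tested was -0.12, and 0.02 with TMM factors, so differences of this size shift with the scaling.

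MMVL30-int, the internal part of VL30, fell in SON cells. Summed over its 97 copies it measured 2495 and 3561 normalized reads in SON a and b, against 6202 and 5917 in GFP control a and b. Both SON libraries lay below both GFP control libraries, SON a the lower. The mean was 3028 ± 754 in SON cells and 6060 ± 202 in GFP control cells (SD, n = 2 each), a log2 difference of -1.02 with an SE of 0.17 on the log2(value + 1) scale (limma adjusted p = 0.0180 over all names). RLTR6_Mm, the VL30 LTR, fell too. It measured 413 and 610.2 normalized reads in SON a and b, against 1213 and 1197 in GFP control a and b. The groups did not overlap, and the difference was -1.26 with an SE of 0.21 (limma adjusted p = 0.0180; 57.5% lower).

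These were 2 of the 5 names that limma called lower, out of 943 tested (0.53% called lower, 0.318% called higher). The other 3 lower names, MER20B, MER68B and RLTR34D_MM, are not gammaretroviral by this rule, and no member was called higher. Both calls held in DESeq2 on the recovered reads (adjusted p = 2.75e-05 for MMVL30-int and 2.71e-06 for RLTR6_Mm). They were lost in edgeR with TMM factors, where the differences were -0.88 and -1.12 (edgeR adjusted p = 0.118 for both), and in limma without SON a, where they were -0.77 and -0.98 (limma adjusted p = 0.287 for both). Without SON b they were -1.28 and -1.54 (limma adjusted p = 0.0604 for both).

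The other VL30 names were not called. RLTR6-int, the internal part that carries the RLTR6 letters, measured 2284 and 1465 normalized reads in SON a and b, against 1897 and 1842 in GFP control a and b. The SON values lay on either side of both GFP control values, with a log2 difference of -0.03 that turned positive with TMM factors (limma adjusted p = 0.972). RLTR6C_Mm measured 130.5 and 175 normalized reads in SON a and b, against 161 and 223 in GFP control a and b. Its copy RLTR6C_Mm_63, with 118 and 160.3 normalized reads in SON a and b, against 129.7 and 187 in GFP control a and b, held most of them. RLTR6B_Mm measured 77.5 and 101 normalized reads in SON a and b, against 139.7 and 92.2 in GFP control a and b. Groups of both LTR names overlapped, with log2 differences of -0.33 and -0.35 (limma adjusted p = 0.648 and 0.674).

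MuLV names were not called in either direction. RLTR4_MM-int, the MuLV internal part, measured 1053 and 1166 normalized reads in SON a and b, against 1117 and 1081 in GFP control a and b. Its groups overlapped, with a log2 difference of 0.01 and an SE of 0.16, which is -0.07 when scaled to total repeat reads (limma adjusted p = 0.980 on the deposited scale). RLTR4_Mm, the MuLV LTR, measured 153.6 and 151 normalized reads in SON a and b, against 102 and 149 in GFP control a and b. Both SON values lay above both GFP control values, at a log2 difference of 0.31 (SE 0.25, limma adjusted p = 0.680). MuLV-int, with 2 copies, measured 17.7 and 17.6 normalized reads in SON a and b, against 32.6 and 26.8 in GFP control a and b. Its difference of -0.71 (SE 0.39) was not called (limma adjusted p = 0.499).

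**Figure D1:**
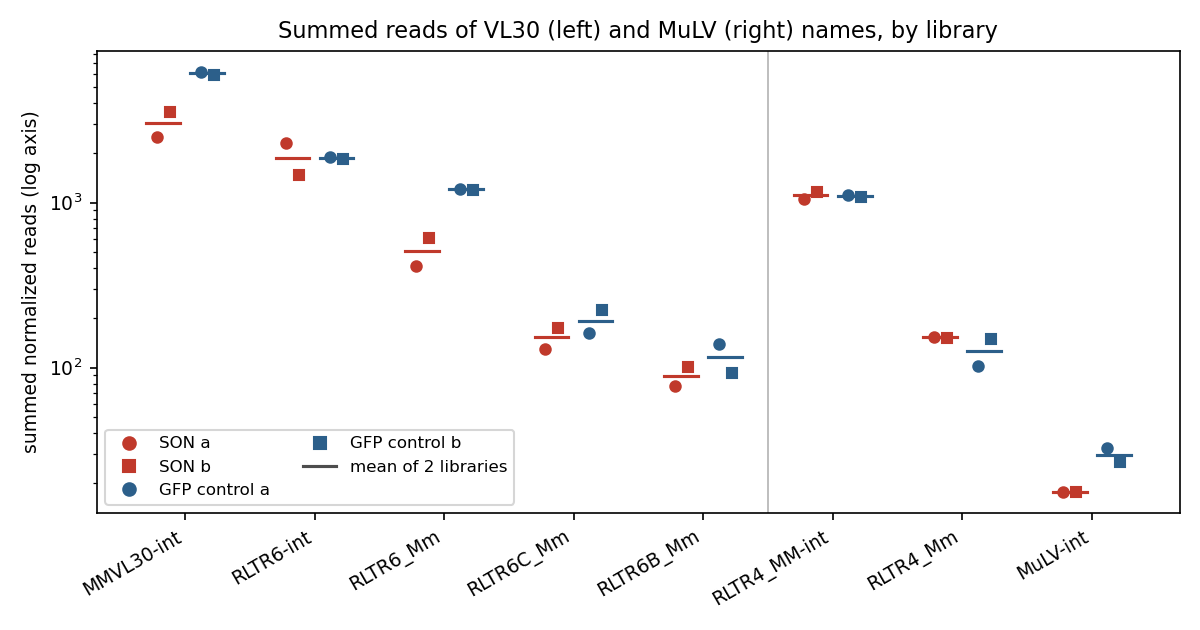
Summed normalized reads (log axis) of the 5 VL30 names and the 3 MuLV names in each library, with SON points left of GFP control points and a bar at the mean of 2 libraries. MMVL30-int and RLTR6_Mm show a clear gap between the groups, with both SON points below. RLTR6-int has its SON points on either side of the GFP control points, and RLTR4_MM-int lies at like levels in both groups.

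The internal part and the LTR of VL30 were compared within each library, where the scaling factor cancels. VL30 internal names had 7.70 and 5.67 reads per LTR read in SON a and b, against 5.35 and 5.13 in GFP control a and b. Both SON ratios were higher, at 6.68 ± 1.43 in SON cells and 5.24 ± 0.154 in GFP control cells (SD, n = 2 each). The log2 difference was 0.33 (exact permutation test, two-sided, p = 0.333), and without SON a it was 0.11. With 2 libraries against 2, p = 0.333 is the smallest this exact test can give, and after adjustment over the 17 ratios and shares computed it is 0.405.

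The ratio of MMVL30-int to RLTR6_Mm alone, the matched pair of names, was closer between libraries. It was 6.04 and 5.84 in SON a and b, against 5.11 and 4.94 in GFP control a and b. The LTR was thus lower relative to its internal part in both SON libraries, by a log2 difference in the ratio of 0.24 (exact permutation p = 0.333). For MuLV the internal to LTR ratio was 6.97 and 7.82 in SON a and b, against 11.3 and 7.45 in GFP control a and b. These groups overlapped (log2 difference -0.31, exact permutation p = 0.667), and without GFP control a the difference was -0.01.

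VL30 was then set against the other retroviral repeats of the same libraries. VL30 names had 4.41 and 4.43 reads per MuLV read in SON a and b, against 7.68 and 7.38 in GFP control a and b. This ratio was almost the same within each group, at 4.42 ± 0.0126 in SON cells and 7.53 ± 0.216 in GFP control cells (SD, n = 2 each; log2 difference -0.77, exact permutation p = 0.333). The parts of the VL30 sum were less alike in the SON libraries. MMVL30-int had 1.09 and 2.43 reads per RLTR6-int read in SON a and b, against 3.27 and 3.21 in GFP control a and b. Against IAP names, 72 copies of a retrotransposon of another class, VL30 measured 4.01 and 4.81 in SON a and b, against 7.30 and 6.63 in GFP control a and b (log2 difference -0.66). Against ETn names, 31 copies, VL30 measured 6.51 and 6.60 in SON a and b, against 7.79 and 9.11 in GFP control a and b (log2 difference -0.36). Neither pair of groups overlapped (exact permutation p = 0.333 each). The share of ETn names in all repeat reads was itself lower in both SON libraries. Its log2 difference was -0.46, and -0.26 outside ribosomal RNA names, again without overlap. The share of IAP names had a difference of -0.16 without overlap, and of 0.04 with overlap outside ribosomal RNA names. The internal parts alone, MMVL30-int over RLTR4_MM-int, gave 2.37 and 3.05 in SON a and b, against 5.55 and 5.47 in GFP control a and b.

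As a share of all repeat reads, VL30 names took 0.703% in SON a (95% exact Clopper-Pearson interval 0.681 to 0.725) and 0.856% in SON b (0.830 to 0.883), against 1.35% in GFP control a (1.33 to 1.38) and 1.39% in GFP control b (1.37 to 1.41). The intervals cover counting error only, and no SON interval reached a GFP control interval. Ribosomal RNA names, whose share differed between these libraries, enter that total. With them left out of it, a total chosen after the data were seen, VL30 took 0.904% and 0.929% in SON a and b, against 1.38% and 1.44% in GFP control a and b. The log2 difference in share was -0.82 with all repeat reads as the total and -0.62 without ribosomal RNA names (exact permutation p = 0.333 each). MuLV took 0.159% and 0.193% of all repeat reads in SON a and b, against 0.176% and 0.189% in GFP control a and b. Those groups overlapped, at a log2 difference of -0.05. Without ribosomal RNA names in the total, MuLV took 0.205% and 0.210% in SON a and b, against 0.179% and 0.195% in GFP control a and b. Both SON shares were then higher, at a log2 difference of 0.15 (exact permutation p = 0.333).

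**Figure D2:**
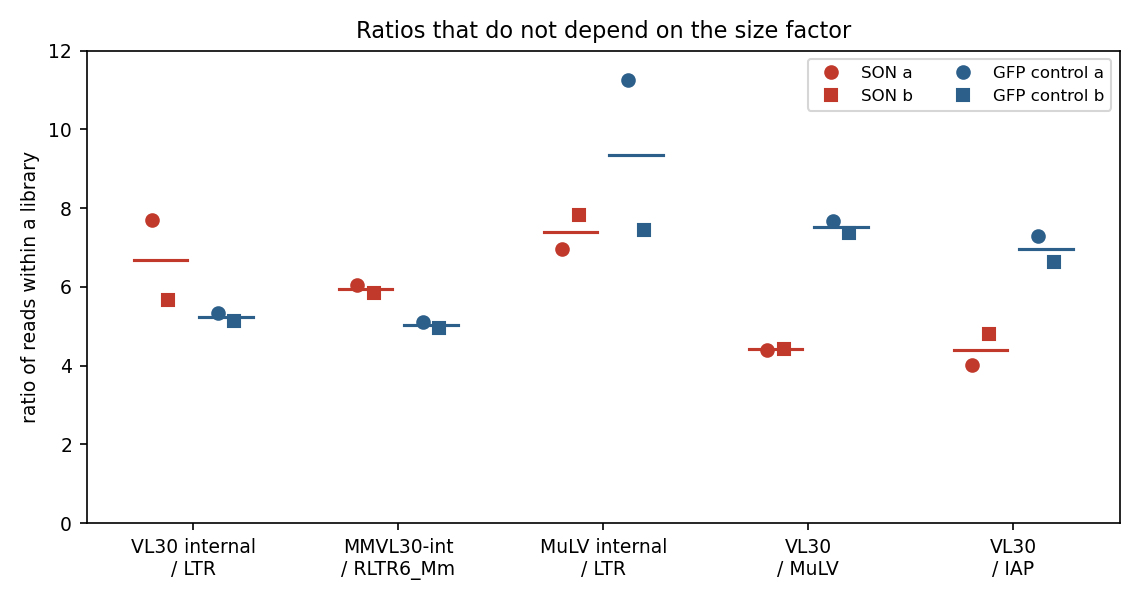
Ratios of summed reads within each library (linear axis from 0), SON left of GFP control, with a bar at the mean of 2 libraries. VL30 to MuLV stands at 4.41 and 4.43 in SON a and b and at 7.68 and 7.38 in GFP control a and b, while the VL30 internal to LTR ratio is higher in SON cells by a margin that rests mostly on SON a.

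Copy by copy, the fall of MMVL30-int was spread over most of its copies, though near-identical copies may share reads or be pieces of 1 element. Of its 97 copies, 92 had a negative log2 difference, and in 71 both SON values lay below both GFP control values. Only 1 copy, MMVL30-int_10, lay above without overlap. Over all 36284 copies of the table, 24.2% lay lower without overlap and 15.5% higher. The median log2 difference of the MMVL30-int copies was -1.25, with a range of -3.41 to 0.97, against -0.15 for all copies. RLTR6_Mm had 9 of 12 copies lower without overlap and 1 higher, with a median of -1.59. RLTR6-int had 12 of 28 lower and 3 higher, at a median of -0.19. RLTR4_MM-int had 8 of 33 lower and 4 higher, at a median of -0.09, which is near the background. Over all names together, 131 of 272 members lay lower without overlap and 20 higher. By comparison 17 of 72 IAP copies lay lower and 21 higher, and 10 of 31 ETn copies lay lower and 2 higher.

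Copies with more reads gave like counts. The table lists no copy with fewer than 21 reads over the 4 libraries, and the GFP control libraries are the deeper ones, so a weak copy enters it more easily through them. Ranked by mean level, the 32 low, 32 middle and 33 high copies of MMVL30-int had medians of -0.97, -1.44 and -1.27. At a mean of at least 50 normalized reads, 15 of 21 MMVL30-int copies (71.4%) lay lower without overlap and 0 higher, against 31.7% lower and 15.4% higher of all 1763 copies at that level. SON a and SON b were not alike: SON a was the lower of the pair in 69 of the 97 MMVL30-int copies, against 55.1% of all copies.

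No single copy passed the test over the whole table. Of the 272 members 176 had enough reads to be tested, and limma called 0% of the 17390 copies tested. At an unadjusted limma p under 0.05, 49 members lay lower and 2 higher, where 6.38% of all copies tested lay lower and 3.15% higher. In all copies this split was 1110 lower and 548 higher with limma, 1008 lower and 768 higher with edgeR and TMM factors, and 479 lower and 945 higher with limma voom, while the members stood at 49 and 2 in edgeR and 31 and 3 in voom. edgeR and voom also called 0 at an adjusted p under 0.05. DESeq2 called 4 members, all lower, and 0.397% of all copies lower: MMVL30-int_943, MMVL30-int_349, RLTR6_Mm_18 and MMVL30-int_769, the last of which is named here because of its call.

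**Figure D3:**
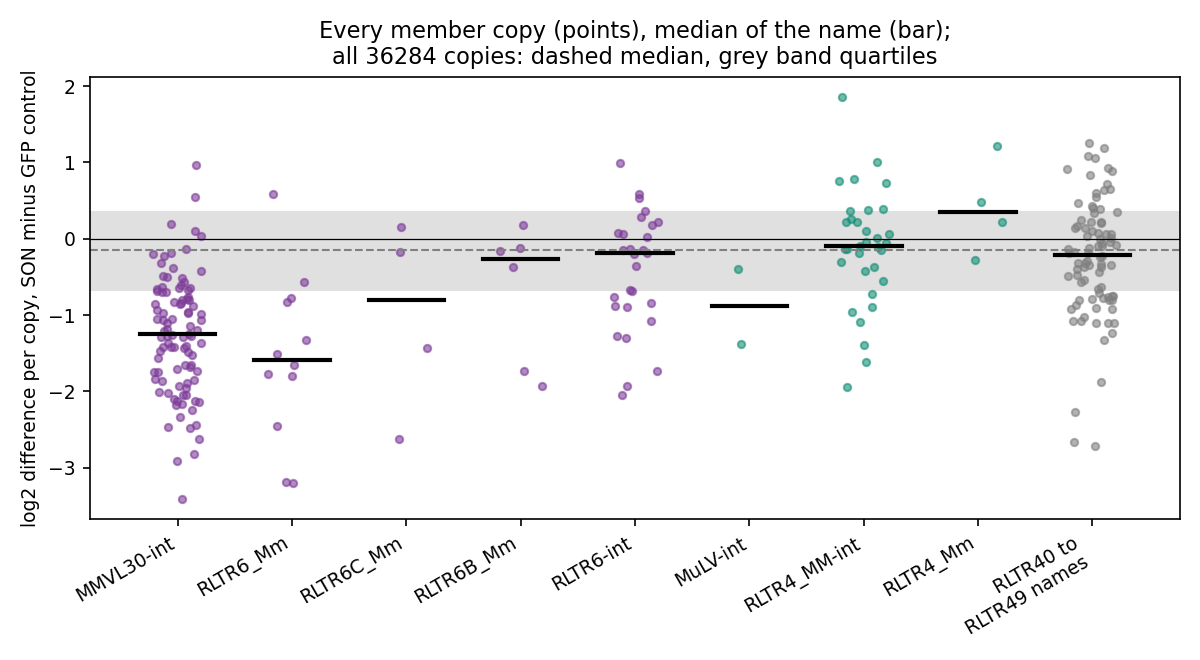
Log2 difference (SON minus GFP control, difference of mean log2(value + 1)) of each of the 272 member copies, by repeat name, with a bar at the median of the name, and the median (dashed) and quartiles (grey band) of all 36284 copies. The MMVL30-int points lie mostly below the grey band with a median of -1.25, those of RLTR6_Mm with a median of -1.59, while RLTR4_MM-int points spread about the dashed line.

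The VL30 internal copies with the most reads differed in size of change. MMVL30-int_84 had 649.5 and 575 normalized reads in SON a and b, against 1268 and 1084 in GFP control a and b (log2 difference -0.94, limma adjusted p = 0.348). It lay lower in both SON libraries. MMVL30-int_885, the next, had 435 and 515 normalized reads in SON a and b, against 584 and 522 in GFP control a and b. It lay lower in SON cells by only -0.22, with SON b just under GFP control b. MMVL30-int_167 had 116 and 418 normalized reads in SON a and b, against 313 and 522 in GFP control a and b. Its groups overlapped, and its difference of -0.88 was 0.05 without SON a.

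Larger falls were seen in other copies with a mean of at least 50. MMVL30-int_943 had 34.0 and 126 normalized reads in SON a and b, against 323 and 274 in GFP control a and b, a log2 difference of -2.16 with an SE of 0.54 (limma adjusted p = 0.280, DESeq2 adjusted p = 0.0428). SON a was the lowest library for this copy, and without it the difference was -1.23. MMVL30-int_349 had 39.4 and 30.9 normalized reads in SON a and b, against 165 and 111 in GFP control a and b, a difference of -1.92 with an SE of 0.35 (limma adjusted p = 0.165, DESeq2 adjusted p = 0.0274). Here both SON libraries lay well under both GFP control libraries. MMVL30-int_697 had 6.79 and 47.1 normalized reads in SON a and b, against 112 and 102 in GFP control a and b, the largest fall among member copies with a mean of at least 50 (-2.48). The size of this fall rested largely on SON a, since the difference was -1.17 without that library, but SON b also lay below both GFP control values. MMVL30-int_752 had 39.4 and 69.1 normalized reads in SON a and b, against 186 and 159 in GFP control a and b (-1.70).

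Of the VL30 LTR, 3 copies held most of the reads, and they did not move together. RLTR6_Mm_146 had 114 and 241 normalized reads in SON a and b, against 497 and 455 in GFP control a and b (log2 difference -1.51, limma adjusted p = 0.276). RLTR6_Mm_18 had 124 and 129 normalized reads in SON a and b, against 453 and 429 in GFP control a and b. Its libraries were close within each group, and its difference of -1.79 with an SE of 0.27 ranked first among the members by limma (adjusted p = 0.165, DESeq2 adjusted p = 0.00407). RLTR6_Mm_145 went the other way, with 128 and 126 normalized reads in SON a and b, against 76.1 and 92.8 in GFP control a and b. Both SON values were higher, a difference of 0.59 with an SE of 0.30 that was not called (limma adjusted p = 0.577). At the low end RLTR6_Mm_45, named outside the rule, had 0 reads in SON a and b, against 11 and 12 reads in GFP control a and b. A floor of 3 reads over both SON libraries sets it at up to 2.12 normalized reads. No copy with fewer than 21 reads is listed, so this copy is present only through its GFP control reads. With such counts it could appear only as a fall, and nothing is drawn from it.

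The RLTR6-int copies with the most reads carry the consecutive numbers 934, 935 and 936 and shared 1 pattern, high in SON a. RLTR6-int_935 had 1007 and 484 normalized reads in SON a and b, against 697 and 680.1 in GFP control a and b. RLTR6-int_934 had 512 and 225 normalized reads in SON a and b, against 285 and 295 in GFP control a and b. RLTR6-int_936 had 314 and 174 normalized reads in SON a and b, against 192 and 218 in GFP control a and b. In all of these SON a was the highest library and SON b the lowest, so the groups overlapped and the sign of the difference turned without SON a. Together these 3 copies held 80.2% of RLTR6-int reads in SON a and 60.2% in SON b, against 61.9% in GFP control a and 64.8% in GFP control b. The sum of RLTR6-int therefore follows them more than its other copies. Of all 28 RLTR6-int copies, 42.9% lay lower without overlap and 10.7% higher, against 24.2% and 15.5% of all copies in the table.

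**Figure D4:**
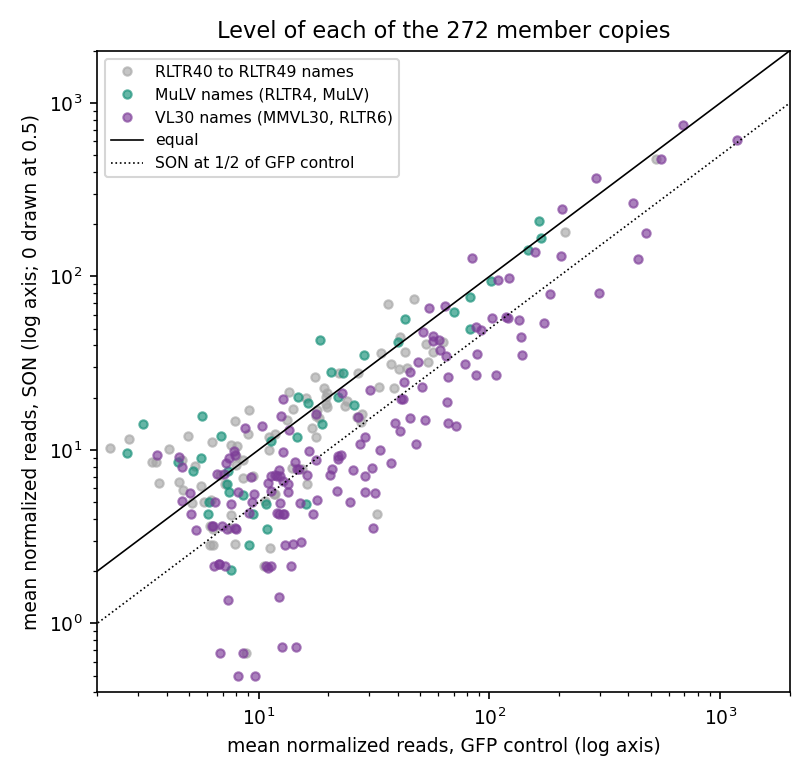
Mean normalized reads of each of the 272 member copies in SON cells (vertical, log axis, 0 drawn at 0.5) against GFP control cells (horizontal, log axis), coloured by VL30, MuLV and letters-only names, with a line of equality and a dotted line where SON is at 1/2 of GFP control. VL30 points lie mostly near or below the dotted line at all levels, with a few of many reads near equality, while MuLV points follow the line of equality.

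MuLV internal copies showed no common direction. RLTR4_MM-int_328 had 147 and 271 normalized reads in SON a and b, against 110.4 and 218 in GFP control a and b, so that libraries b were high in both groups. RLTR4_MM-int_11 had 137 and 194 normalized reads in SON a and b, against 171 and 165 in GFP control a and b. RLTR4_MM-int_10 had 119.6 and 166 normalized reads in SON a and b, against 145 and 149 in GFP control a and b. The groups of all of these overlapped (log2 differences of 0.36, -0.04 and -0.06; limma adjusted p from 0.820 to 0.978). RLTR4_Mm_226, the LTR copy with the most reads, had 89.7 and 35.3 normalized reads in SON a and b, against 56.0 and 83.9 in GFP control a and b, and its groups overlapped as well. RLTR4_Mm_195 had 21.7 and 64.7 normalized reads in SON a and b, against 8.37 and 28.6 in GFP control a and b, high in libraries b. RLTR4_Mm_132 had 28.5 and 27.9 normalized reads in SON a and b, against 15.1 and 26.2 in GFP control a and b, with both SON values just higher (limma adjusted p = 0.734).

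The top 3 copies took 48.1% and 42.3% of MMVL30-int reads in SON a and b, against 34.9% and 36.0% in GFP control a and b. The first, MMVL30-int_84, took 26.0% of MMVL30-int reads in SON a and 16.1% in SON b, against 20.4% in GFP control a and 18.3% in GFP control b. The effective number of copies, the inverse of the summed squared shares, was 9.24 and 14.1 in SON a and b, against 15.5 and 16.6 in GFP control a and b. At least 1 read was seen for 92 and 95 MMVL30-int copies in SON a and b, against 97 and 97 in GFP control a and b, which are the deeper libraries.

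Of the names that share the letters only, RLTR41C and RLTR40 took the most reads, with no allowance for length. RLTR41C measured 603 and 388 normalized reads in SON a and b, against 541 and 540.3 in GFP control a and b, nearly all of it in 1 copy. RLTR40 measured 433 and 476 normalized reads in SON a and b, against 443 and 388 in GFP control a and b. None of the 15 names was called, and their summed means ran from 7.07 to 496 in SON cells and from 9.43 to 541 in GFP control cells. Of their 86 copies, 25 (29.1%) lay lower without overlap and 10 (11.6%) higher, near the 24.2% and 15.5% of all copies. Both of the other rises among members with a mean of at least 50 were here. RLTR40_1184 had 74.7 and 63.2 normalized reads in SON a and b, against 38.5 and 33.9 in GFP control a and b. RLTR42-int_648 had 87.0 and 61.8 normalized reads in SON a and b, against 43.5 and 50.6 in GFP control a and b. The differences, 0.91 and 0.63, were not called (limma adjusted p = 0.483 and 0.588).

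Host genes that act on these elements were read from the gene table, where limma called 0.0523% of 15283 genes, none of them in the lists that follow. At an unadjusted limma p under 0.05, 6.57% of all genes lay lower and 5.99% higher, and the authors' deposited table called 2.59% of its 14637 genes lower. In the list of repressors of gammaretroviral proviruses, 25 genes, 9 log2 differences were negative and 16 positive, with a median of 0.10 against -0.01 for all genes tested, and 1 gene lay lower and 0 higher at an unadjusted p under 0.05. Trim28, the corepressor brought to proviruses by zinc finger proteins, measured 6514 and 5093 normalized reads in SON I and II, against 5666 and 5676 in GFP control I and II. Cbx5, a heterochromatin protein, measured 3898 and 2246 normalized reads in SON I and II, against 2906 and 2724 in GFP control I and II. Atrx, a chromatin remodeller, measured 2610 and 2822 normalized reads in SON I and II, against 2811 and 1965 in GFP control I and II. The groups of all of these overlapped. Zfp809, the zinc finger protein that binds the primer binding site of MuLV, is named outside the rule for its role. It measured 295 and 331 normalized reads in SON I and II, against 380.03 and 329.9 in GFP control I and II.

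Among 21 factors that bind VL30 or MuLV enhancers, 14 differences were negative and 7 positive (median -0.09). At an unadjusted limma p under 0.05, 6 lay lower and 1 higher. Hif1a, the subunit of the low-oxygen factor, measured 9407 and 9887 normalized reads in SON I and II, against 16635 and 15446 in GFP control I and II. Both SON values were lower, by a log2 difference of -0.73 with an SE of 0.16 (limma adjusted p = 0.257). The authors' deposited table gives Hif1a an adjusted p of 0.0205, the only call it makes in this list. Fosl2, a member of the AP-1 family, measured 6690 and 6381 normalized reads in SON I and II, against 7724 and 6621 in GFP control I and II. Egr1, the growth factor response gene, measured 2011 and 11130.2 normalized reads in SON I and II, against 6065 and 4559 in GFP control I and II, so the SON values lay on either side.

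Of 7 restriction genes found, 6 differences were negative (median -0.51), and 3 lay lower at an unadjusted limma p under 0.05. Bst2, which tethers budding virions to the cell, measured 2608 and 2106 normalized reads in SON I and II, against 5786 and 4898 in GFP control I and II. Its log2 difference was -1.18 with an SE of 0.18 (limma adjusted p = 0.230, and 3.01e-04 in the authors' deposited table). Zc3hav1, which marks viral RNA for decay, measured 1887 and 1766 normalized reads in SON I and II, against 3704 and 2891 in GFP control I and II (-0.84, limma adjusted p = 0.249, and 0.0239 in the authors' deposited table). Samhd1, which lowers the supply of nucleotides, measured 2544 and 906 normalized reads in SON I and II, against 1796 and 1500.3 in GFP control I and II, and overlapped.

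All 4 cell receptors of murine gammaretroviruses had a positive difference (median 0.35), and 1 passed an unadjusted limma p under 0.05. Slc20a1, a phosphate carrier, measured 3296 and 3931 normalized reads in SON I and II, against 2892 and 2597 in GFP control I and II. Slc20a2, the receptor of amphotropic virus, measured 2622 and 2499 normalized reads in SON I and II, against 1761 and 2041 in GFP control I and II. Slc7a1, the receptor of ecotropic virus, measured 3285 and 1423 normalized reads in SON I and II, against 1905 and 1584 in GFP control I and II, and overlapped. The 5 genes of VL30 RNA binding and export had a median of 0.03 with 0 at an unadjusted limma p under 0.05. Of these Nono measured 6835 and 5597 normalized reads in SON I and II, against 6146 and 6275 in GFP control I and II, and overlapped. Sfpq, a protein known to bind VL30 RNA in mouse, measured 4339 and 2938 normalized reads in SON I and II, against 3504 and 3480 in GFP control I and II. Srsf3, a splicing and export factor, measured 4331 and 2822 normalized reads in SON I and II, against 3588 and 3707 in GFP control I and II. The groups of both overlapped.

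Markers of the labelled cell type were present, and all 10 fibroblast markers were read in all libraries. Their summed level was 413616 to 469302 in SON cells and 483179 to 954981 in GFP control cells, with 7 of 10 differences negative. Fn1, fibronectin, had a positive log2 difference of 0.48, and the collagens Col1a1 and Col1a2 had -0.89 and -1.19. The authors' deposited table called 4 of the 10 lower, Col1a2, Postn, Dcn and Lum, of which the last 3 had limma differences of -2.04, -2.59 and -3.82 and were not called by limma. Fat cell markers (5 genes) summed to 1069 to 1164 in SON cells and 4835 to 15825 in GFP control cells, nearly all from Lpl and Fabp4, and Plin1 had 0 reads in SON II. The authors' deposited table, but not limma, called Lpl and Fabp4 lower (adjusted p = 2.32e-07 and 2.87e-07 in that table). Macrophage markers (12 genes) summed to 326 to 1093 in SON cells and 999 to 1262 in GFP control cells, with Adgre1, Tyrobp, Fcer1g, C1qa, C1qb and C1qc at 0 in at least 1 SON library, and C1qa and C1qc also at 0 in 1 GFP control library each. Epithelial markers (6 genes) summed to 660 to 968 in SON cells and 183 to 378 in GFP control cells. Dsp and Krt19 were higher in both SON libraries, and the authors' deposited table, but not limma, called them higher. Krt8 was lower in both SON libraries, and Cdh1, Epcam and Krt18 overlapped. Endothelial markers (5 genes) summed to 226 to 249.5 in SON cells and 119 to 174 in GFP control cells. Kdr and Tek were higher in both SON libraries, while Pecam1, Cdh5 and Emcn overlapped. Lymphocyte markers (7 genes) summed to 6.82 to 17.6 in SON cells and 10.9 to 15.5 in GFP control cells, with every gene but Cd4 at 0 in at least 1 of the 4 libraries. Germ line markers (5 genes) summed to 31.4 to 39.7 in SON cells and 66.0 to 66.6 in GFP control cells. This gap lay in Ddx4, with 13.6 and 11.8 normalized reads in SON I and II, against 45.1 and 44.0 in GFP control I and II. Dazl, Sycp3 and Tex14 overlapped, and Mael, of few reads, was higher in both SON libraries. Limma log2 differences were negative, as for VL30, in 7 of 10 fibroblast markers (not Thy1, Vim and Fn1). So they were in all tested markers of fat cells (3), macrophages (7) and germ line (2). Of all these negative markers, fibroblast ones included, the groups of Col3a1, Adgre1, Cd68, Csf1r, Ptprc, Laptm5 and Sycp3 overlapped. Among them Cd68, Ptprc and Laptm5 had higher means in SON cells. The untested germ line markers Dazl, Mael and Tex14, of few reads, also had higher means in SON cells. The part of these cell types in the fall of VL30 was not tested. In these bulk libraries fewer cells that hold VL30 RNA and less of it per cell cannot be told apart.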

How the data were processed

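The deposited tables hold a signal per gene (39179 genes) or repeat copy (36284): per the submitters' processing notes the tools include STAR 2.4.0j, featureCounts, TopHat2 2.0.11, DESeq2, HTSeq 0.5.3p3 and CASAVA 1.8.1, with GRCm38 and mm10. The handling of multi-mapped reads was not given in the sources used here, and near-identical copies may share reads. The deposited signal values were whole multiples of 1 step per library in 100% of cases (tolerance 0.01 reads), which gives the reads the authors divided by a factor. Per the file headers the gene table also holds the authors' log2 fold change and adjusted p-value.

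The main test was limma 3.58.1 in R 4.3.3 with a trend on the mean, on log2(value + 1), two-sided, after filterByExpr of edgeR 4.0.16, with Benjamini-Hochberg adjusted p under 0.05 over all copies, names or genes tested. On recovered reads edgeR (TMM, RLE) and limma voom called 0 copies and 0 names, and DESeq2 1.42.0 called 101 copies and 21 names. Ratios had an exact permutation test (SciPy 1.17.1). A sum per name adds all copies. The tables held 0 other columns of per-sample values. The fits were also run on simulated counts, drawn with the same dispersion in every row and without the uneven ribosomal RNA share of these libraries. That run therefore cannot show how the fits do on these data.

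Copies described were, per name, the 3 of highest mean, those called, and up to 5 rises and 5 falls at a mean of at least 50 without overlap. Copies of MuLV-int and RLTR6B_Mm, and of RLTR6C_Mm but for the highest, were given as sums. Genes named were the 3 of highest mean in each list. Exceptions were chosen after their values were seen. Members and lists were chosen with earlier results of these data known.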

Additional observations from a re-analysis of the deposited data

How the results depend on the processing

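With 2 libraries a group, 1 library can decide a call. MMVL30-int kept a negative log2 difference in every alternative run, but its call was lost with edgeR TMM (-0.88), edgeR RLE (-0.89), limma voom (-0.89), scaling to total repeat reads (-1.10) and, added after the data were seen, scaling to repeat reads outside ribosomal RNA names (-0.90). RLTR6_Mm lost its call under the same settings (-1.12, -1.13, -1.13, -1.34 and -1.14). Leaving out 1 library gave -1.28 to -0.77 for MMVL30-int and -1.54 to -0.98 for RLTR6_Mm, and both calls were lost without either SON library and kept without either GFP control library; the single library left is then assumed to vary like the other group. Adjusted p over the alternatives ran from 2.75e-05 to 0.287 for MMVL30-int and from 2.71e-06 to 0.287 for RLTR6_Mm. Names called, 8, were 0 with edgeR TMM, edgeR RLE and voom, 21 with DESeq2, 2 with total repeat reads and 2 outside ribosomal RNA names, and 0 to 25 with 1 library left out. Copies called, 0, were 1 with a pseudocount of 10, 1 without a filter, 1 with a filter of 1 CPM, 101 with DESeq2, and 18 to 1173 with 1 library left out, and member copies called were 4 with DESeq2 and 1 to 52. Genes called, 8, were 617 with DESeq2, 4 with voom and 0 to 37 with 1 library left out. The replicate block on the numerals of the gene table gave 11 (4 higher and 7 lower). No label says what the letters of the repeat columns mark. A replicate block on them, added after the data were seen, called 157 copies (36 higher and 121 lower), 9 member copies and 33 names, and kept both VL30 calls. Deviations from the group means of libraries with the same letter or numeral correlated at 0.099 over copies, 0.075 over names and 0.22 over genes. The MuLV share had a log2 difference of 0.15 outside ribosomal RNA names and -0.19 to 0.086 with 1 library left out. Without the copy of most reads in each name, the MuLV internal to LTR difference was -0.72, and that of VL30 0.29.

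The sign of some values turned. RLTR6-int was 0.15 with edgeR TMM, 0.13 with edgeR RLE, 0.13 with DESeq2, 0.10 with voom, 0.089 outside ribosomal RNA names, and -0.35 to 0.29 with 1 library left out. RLTR4_MM-int was -0.069 scaled to total repeat reads and -0.061 to 0.086 with 1 library left out. Among copies, leaving out 1 library gave -1.80 to 0.047 for MMVL30-int_167, -0.37 to 0.82 for RLTR6-int_934, -0.51 to 0.55 for RLTR6-int_935, -0.24 to 0.61 for RLTR6-int_936 and -0.44 to 0.086 for RLTR6C_Mm_63. The causes were not tested.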

Other observations

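Some gammaretroviral repeats have names outside the rule, and were looked up by name after the table had been seen. MuRRS4-int, an internal part with 13 copies, measured 607 and 568 normalized reads in SON a and b, against 552 and 626 in GFP control a and b, and its groups overlapped (limma adjusted p = 0.997). RLTR1B-int, also with 13 copies, measured 136 and 147 normalized reads in SON a and b, against 196 and 174 in GFP control a and b, with both SON values lower (log2 difference -0.38, limma adjusted p = 0.508). MURVY-LTR, an LTR of copies known from the Y chromosome, measured 74.7 and 64.7 normalized reads in SON a and b, against 92.0 and 107.7 in GFP control a and b (log2 difference -0.51, limma adjusted p = 0.493). None of these was called.

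Copies with consecutive numbers under a name were closer in their log2 difference than copies at large. The median gap was 0.31 over 7 consecutive pairs of RLTR6-int against 0.75 over all 378 pairs, 0.39 over 10 consecutive pairs of RLTR4_MM-int against 0.68 over all 528, and 0.61 over 28 consecutive pairs of MMVL30-int against 0.74 over all 4656. The table gives no positions, so whether consecutive numbers are pieces of 1 element was not tested. MMVL30-int_945, 946 and 947 show such a run, chosen after its values were seen: MMVL30-int_946 had 51.6 and 146 normalized reads in SON a and b, against 65.3 and 179 in GFP control a and b, low in both libraries lettered a.

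Of the MMVL30-int copies, 5 had a positive log2 difference. MMVL30-int_884, the neighbour by number of MMVL30-int_885, had 82.9 and 52.9 normalized reads in SON a and b, against 65.3 and 63.7 in GFP control a and b. The other 4 had 3 to 9 reads in a SON library and 4 to 14 in a GFP control library.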
